A study of Mus musculus with 4 samples.

Results

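Group 2 innate lymphoid cells (ILC2), lymphocytes without an antigen receptor that secrete type 2 cytokines, made up 175 of the 6443 cells kept from periwound mouse skin. They were taken as cells with at least 1 UMI (a counted RNA molecule) of *Gata3* and of at least 2 of the 6 genes *Il5*, *Il13*, *Calca*, *Hlf*, *Areg* and *Rora*, and with no UMI of the 7 genes *Cd3d*, *Cd3e*, *Trdc*, *Foxp3*, *Mcpt8*, *Cpa3* and *C1qa*. Only cells that had from 200 to 3000 genes detected, with no more than 10% of their UMIs from mitochondrial genes, could enter. The members were therefore selected on measured values, and the 14 gate genes are described without a test. The ILC2 numbered 15 in Control 1, 30 in Control 2, 109 in hucMSC-Exo 1 and 21 in hucMSC-Exo 2.

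All mice were C57/BL6j, aged 6 weeks, with full-thickness punch wounds of 8 mm. Controls received PBS, and treated mice received 100 micrograms of exosomes made by mesenchymal stem cells of the human umbilical cord (hucMSC-Exo), subcutaneously at 4 sites around the wound every 48 hours. Skin around the wound was dissociated on day 7, and the study describes 2 mice per group, which matches the 2 libraries of each group, although the labels name no animal. The groups follow the sample titles, while letters that the matrices carry would pair them differently. All directions between groups therefore depend on the titles. The tissue label names parts of the gut, whereas the cell type label and the protocols name skin.

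ILC2 live mainly as resident cells of barrier tissues. Alarmins released by damaged epithelium, chiefly IL-33, TSLP and IL-25, together with IL-18, IL-7 and neuropeptides, act on their receptors and drive secretion of IL-5, which recruits eosinophils, and IL-13, which acts on epithelium, fibroblasts and macrophages. Amphiregulin, encoded by *Areg*, is their product with the closest link to epithelial repair, and GATA-3 together with ROR-alpha, the proteins of *Gata3* and *Rora*, directs their development.

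The genes of the type 2 cytokines lie in 1 cluster of mouse chromosome 11 (GRCm38), with *Il4* at 53602982 to 53618669 and *Il13* at 53631324 to 53634702 on the minus strand, and *Il5* at 53720794 to 53725106 on the plus strand. GATA-3 binds short sites with a GATA core, and the 250 bases before the first transcribed base in RefSeq (GRCm38.p6) were searched on both strands for AGATAA or AGATAG and for TGATAA or TGATAG. Promoters of *Il5*, *Il13* and *Calca*, products that define the cells, and of *Il1rl1*, the IL-33 receptor, are shown as examples among those that held a match. Capitals mark the matched letters, read 5′ to 3′ on the strand of the gene, which is plus for *Il5* and *Il1rl1* and minus for *Il13* and *Calca*.
Il5 chr11:53720544-53720793: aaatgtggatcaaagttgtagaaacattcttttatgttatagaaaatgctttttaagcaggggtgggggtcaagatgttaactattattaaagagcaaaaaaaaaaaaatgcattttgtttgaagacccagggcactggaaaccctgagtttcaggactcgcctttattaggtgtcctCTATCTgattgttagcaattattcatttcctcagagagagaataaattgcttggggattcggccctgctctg
Il13 chr11:53634703-53634952: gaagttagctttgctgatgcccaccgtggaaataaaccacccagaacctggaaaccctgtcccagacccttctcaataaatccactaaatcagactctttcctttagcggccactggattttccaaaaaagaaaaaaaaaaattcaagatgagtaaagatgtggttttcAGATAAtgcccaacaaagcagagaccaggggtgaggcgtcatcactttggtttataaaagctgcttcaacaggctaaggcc
Calca chr7:114636358-114636607: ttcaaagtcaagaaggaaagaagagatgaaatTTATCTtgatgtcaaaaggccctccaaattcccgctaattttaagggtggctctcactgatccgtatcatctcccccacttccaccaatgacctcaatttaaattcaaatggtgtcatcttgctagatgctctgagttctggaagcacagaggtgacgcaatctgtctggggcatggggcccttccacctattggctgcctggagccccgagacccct
Il1rl1 chr1:40429320-40429569: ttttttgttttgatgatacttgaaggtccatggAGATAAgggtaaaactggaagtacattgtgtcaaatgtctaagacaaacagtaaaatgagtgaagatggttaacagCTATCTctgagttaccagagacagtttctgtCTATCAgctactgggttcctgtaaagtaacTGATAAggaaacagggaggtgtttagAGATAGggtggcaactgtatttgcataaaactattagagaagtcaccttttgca
Counting back from -1 at the last base before the start, the first letter of the match stood at -72 in *Il5*, -81 in *Il13* and -218 in *Calca*, and the window of *Il1rl1* at its upstream start held 5 matches between -217 and -54. The other window of *Il1rl1* held 1 at -103. *Rora* held 1 at -38, and the windows of *Gata3*, *Hlf* and *Areg* held none. *Il4*, mainly a basophil transcript here, held 1 at -80 in 1 window and none in its other window. Of all 32851 promoter windows in the table, 26.5% held at least 1 match and 14 windows (0.0426%) held 5 or more. A match of letters is a description and shows no binding.

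The deposited matrices held 1098 to 2422 cells and 6657095 to 16950639 UMIs per library, fewer cells in each library than the study describes, so every share is a share of the deposited cells. The ILC2 carried 92524 UMIs in Control 1, 174722 in Control 2, 530373 in hucMSC-Exo 1 and 105177 in hucMSC-Exo 2, and their median UMIs per cell were 6064, 5450.5, 4259 and 4668. Of the barcodes, 6 occurred in more than 1 library, and 1 of the ILC2 also met the gate for neutrophils. Among the ILC2, 8 (0, 2, 5 and 1 per library) held 10 or more UMIs of *Siglech*, *Lyz2*, *S100a9*, *Xcl1*, *Gzmc* or *Tyrobp*. These genes, known from other cells, and this limit were chosen after seeing the data. The origin of that RNA was not tested. Keratin RNA was highest in Control 1, where *Krt5* reached 746 CPM (UMIs per 1000000 of the summed cells) against 120.2 to 209 CPM in the ILC2 of the other libraries. In Control 1 a single cell held 71.0% of the *Krt5* UMIs and a single cell held 80.3% of those of *Krt14*, so this level was not that of most cells. No keratin was among the genes that marked the 8 cells, and none of those cells lay in Control 1. UMIs of *Krt5* were found in 49.1% of ILC2 and in 45.2% of macrophages and 45.7% of neutrophils, a like share in these populations, and *Krt5* was higher in ILC2 than in NK cells by 1.68 ± 0.38 log2 units (adjusted p = 0.00826), a call lost without Control 1 (1.53 log2 units, adjusted p = 0.144), without the library term and with DESeq2. Marker lists of other cells summed in the ILC2 to 0 to 38.0 CPM for basophils and mast cells (11 of 12 genes at 0), 152 to 641 for NK cells and ILC1 (5 of 12 at 0), 335 to 850.3 for macrophages (2 of 12 at 0), 64.8 to 799 for neutrophils (2 of 8 at 0) and 877 to 2572 for keratinocytes and fibroblasts (0 of 10 at 0). The part of such RNA in the results was not tested, and counts of differing genes without the 8 cells are given with each comparison.

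Genes that the gate did not use were examined to check the label. *Icos*, a costimulatory receptor of activated lymphocytes, was detected in 93.7% of the 175 cells, against 0.871% of macrophages and 0.359% of neutrophils (median UMIs 4685, 7270.5 and 2158.5). *Il7r*, the receptor for the survival cytokine IL-7, was found in 92.6%, *Id2*, the regulator required by all innate lymphoid cells, in 92.0%, *Il18r1*, a chain of the IL-18 receptor, in 64.6%, *Thy1* in 60.6% and *Kit*, the receptor for stem cell factor, in 60.0%. Both *Icos* and *Il7r* were present in 154 cells. CD4 T cells also carried both, at levels given below, so the pair does not separate ILC2 from T cells. In the 361 cells that met the gate but for a barred gene, *Icos* was detected in 87.8% and *Il7r* in 82.8%. Other customary ILC2 markers were sparse. *Il17rb*, a chain of the IL-25 receptor, was found in 17.7%, *Il1rl1* in 10.9%, *Klrg1* in 2.86% and *Arg1* in 3.43% of the cells, and 45 cells had *Il1rl1* or *Il17rb*. No UMI was counted for the NK cell genes *Ncr1*, *Eomes* and *Gzma*, the IL-23 receptor gene *Il23r*, the basophil genes *Fcer1a* and *Ms4a2*, or the macrophage gene *C1qc*, within the limits that a count of 0 allows, given for *Cd247* below. Other genes of these lists were read, and ILC3 and IL-17 genes summed to 349 to 530 CPM (2 of 8 at 0). *Ccr6*, on that list, was found in 46.7% and 16.7% of ILC2 in Control 1 and 2. In hucMSC-Exo 1 and 2 it was found in 37.6% and 28.6%. It was called higher than in basophils and CD4 T cells, calls lost when cells with over 3000 genes were kept.

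T cell receptor transcripts were read in most of the cells although *Cd3d*, *Cd3e* and *Trdc* were barred. The constant genes *Trbc1* or *Trbc2* were present in 141 of the 175 cells, *Cd3g* in 38, *Trac* in 18 and both of the latter in 5, and 27 cells had no UMI of *Cd3g*, *Trac*, *Trbc1*, *Trbc2* or *Tcrg-C1*. The near-identical *Trbc1* and *Trbc2* share reads, so their split is uncertain. *Trbc1* was also found in 80.4% of NK cells but in 1 of 836 neutrophils, so its share differed between populations. *Cd247*, which encodes the signalling chain CD3-zeta, had no UMI among the 902796 of the ILC2, where a count of 0 allowed up to 32.4 CPM in Control 1, 17.2 in Control 2, 5.66 in hucMSC-Exo 1 and 28.5 in hucMSC-Exo 2. In the 1550 gamma delta T cells (*Cd3e* and *Trdc* present) it stood at 483, 524, 364 and 402 CPM in the same order of libraries. Among cells that met the ILC2 gate but for a barred gene, *Cd3g* stood at 1322 CPM and *Kit* at 31.3 CPM over 361 cells.

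At the edges of the gate, *Icos* and *Il7r*, which it did not use, took these levels. The 40 cells just inside, with *Gata3* and exactly 2 of the 6 genes, had 1438 CPM of *Icos* and 684 CPM of *Il7r*, and the 135 cells with 3 or more had 1929.9 and 809 CPM, written in the same order. Just outside, the 57 cells with *Gata3* and 1 of the 6 genes had 202 CPM of *Icos* and 331 CPM of *Il7r*. Another 69 cells carried at least 2 of the 6 genes without a UMI of *Gata3*, at 802 CPM of *Icos* and 718 CPM of *Il7r*. The 361 cells that met the gate but for a barred gene had 1144 CPM of *Icos*, detected in 87.8% of them, and 759.6 CPM of *Il7r*, detected in 82.8%. By CPM, *Icos* was thus lower in each set outside than in the 40 cells just inside, whereas *Il7r* was lower only in the 57 cells with 1 of the 6 genes. By detection, *Icos* was not lower in the 361 cells, since it was found in 85% of the 40 cells.

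The ILC2 formed 1.58% of kept cells in Control 1 (95% exact interval 0.884 to 2.59), 1.45% in Control 2 (0.978 to 2.06), 7.70% in hucMSC-Exo 1 (6.36 to 9.21) and 1.05% in hucMSC-Exo 2 (0.651 to 1.60), where intervals cover counting error only. The hucMSC-Exo library 1 was thus the highest and the hucMSC-Exo library 2 the lowest, and the groups overlapped. Means were 1.51 ± 0.0913% in Control and 4.37 ± 4.70% in hucMSC-Exo (SD, n = 2), a difference of 2.86 percentage points that was within the spread of the treated libraries (two-sided exact permutation p = 1). With 2 libraries a group the smallest p this test can give is 0.333. Without hucMSC-Exo 1 the difference turned to -0.46 percentage points, and without hucMSC-Exo 2 it was 6.19.

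With at least 3 of the 6 genes required, the cells numbered 11, 24, 86 and 14 in the same order of libraries. Requiring no UMI of *Cd3g* or of a T cell receptor gene left 2, 2, 20 and 3 cells, and a difference between group means of 0.628 percentage points (exact permutation p = 0.667). After every cell was thinned to 1000 UMIs before gating, both hucMSC-Exo libraries lay above both Control libraries, with 58 and 19 cells against 3 and 15, and the difference was 2.06 percentage points at the smallest p of 0.333. In the same library that was rich in ILC2, CD4 T cells formed 2.40% and NK cells 0.494% of kept cells, close to their 2.40% and 0.4998% in hucMSC-Exo 2.

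**Figure D1:**
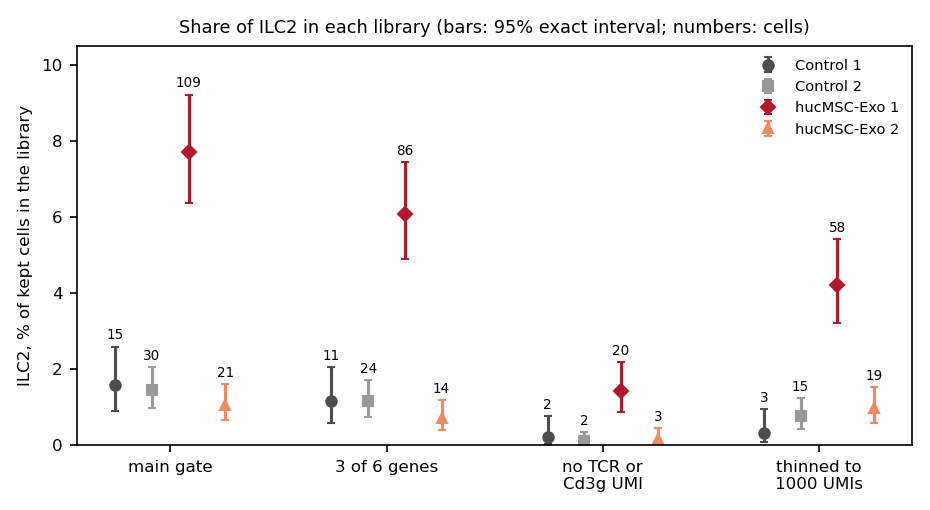
Share of kept cells that were ILC2 (y axis, percent) in each of the 4 libraries under the gate as described, with 3 of the 6 genes required, with T cell receptor transcripts barred and after thinning. Points are single libraries, bars 95% exact intervals and numbers the cells counted, and hucMSC-Exo 1 lay highest under each gate, at 7.70% under the gate as described.

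Transcripts of the secreted products that chose the cells were each detected in a part of them. A cell without a UMI was not shown to lack the transcript. *Il5* was detected in 78 of the 175 cells, *Il13* in 62, *Calca*, the gene of the neuropeptide CGRP, in 66 and *Areg* in 72. Either *Il5* or *Il13* was present in 105 cells and both in 35, and 29 cells had none of the 4 products and entered on *Rora* and *Hlf*. The level of *Il5* in the ILC2 was 86.5, 681, 364 and 428 CPM, with the Control libraries 1 and 2 first and the hucMSC-Exo libraries 1 and 2 after them, an order kept for all values below. *Il13* stood at 238, 223, 192 and 247 CPM, *Calca* at 54.0, 498, 462 and 361 CPM and *Areg* at 303, 521, 549 and 380.3 CPM. Control 1 was lowest for *Il5*, *Calca* and *Areg* but not for *Il13*, and for these 4 genes the groups overlapped. A single cell held 31 of the 45 *Il5* UMIs in hucMSC-Exo 2 and 38 of the 119 in Control 2. For *Areg* a single cell held 21 of the 28 UMIs in Control 1 and 22 of the 40 in hucMSC-Exo 2. In hucMSC-Exo 1 the top cell held 22 of 193 UMIs of *Il5* and 57 of 291 of *Areg*. The levels of *Il5* in hucMSC-Exo 2 and of *Areg* in Control 1 and hucMSC-Exo 2 were thus not those of most cells.

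Of the regulators, *Gata3* was read at 529.6, 1019, 956 and 951 CPM, *Rora* at 1654, 1677, 1852 and 1825 CPM and *Hlf*, which encodes a PAR bZIP transcription factor, at 670.1, 1299, 1319.8 and 1284 CPM. *Rora* was found in 172 cells and *Hlf* in 161. Control 1 was lowest for all 3.

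**Figure D2:**
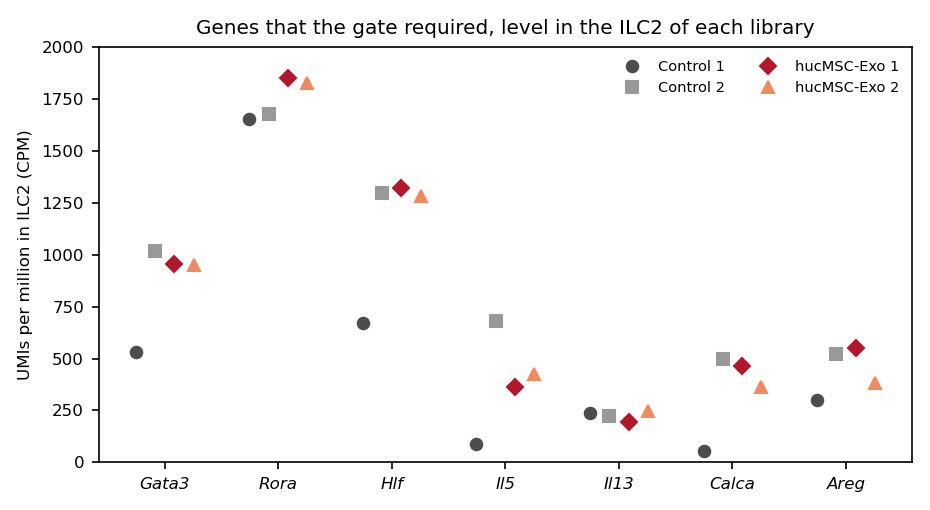
Level of the 7 genes that the gate required (x axis) in the summed ILC2 of each library (y axis, CPM). Each point is 1 library, and Control 1 lay lowest for each gene but *Il13*, for example at 86.5 CPM of *Il5* against 364 to 681 CPM in the other libraries.

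The part of each product that lay in ILC2 is a description, since these genes chose the cells. The parts with 1 library left out were computed after seeing the data. Of the 1024 UMIs of *Il5* in all kept cells, 35.6% lay in ILC2 and 38.9% in CD4 T cells. By library the ILC2 part of *Il5* was 57.1%, 48.4%, 77.5% and 8.74%, and that of CD4 T cells 7.14%, 39.8%, 0% and 58.1%. The CD4 T cells thus led in hucMSC-Exo 2, which held 515 of the UMIs, and without that library ILC2 held 62.9% and CD4 T cells 19.4%, while without hucMSC-Exo 1 ILC2 held 22.2%. ILC2 held 23.2% of the 813 UMIs of *Il13*, while gamma delta T cells held 203 of them, CD4 T cells 198 and basophils 97. By library the ILC2 part of *Il13* was 21.4%, 14.7%, 49.5% and 10.9%, and it was 14.3% without hucMSC-Exo 1. The CD4 T cell part of *Il13* fell from 24.4% to 13.6% without hucMSC-Exo 2. For *Calca* the ILC2 part was 38.1% of 983 UMIs, or 19.2%, 33.2%, 69.6% and 11.1% by library, and 20.6% without hucMSC-Exo 1. For *Hlf* it was 40.8% of 2755, or 29.8%, 35.7%, 57.4% and 19.5% by library. The ILC2 part of all 4 genes was thus highest in hucMSC-Exo 1, the library richest in ILC2, and lowest in hucMSC-Exo 2. In contrast, 69.5% of the 20932 UMIs of *Areg* lay in gamma delta T cells and 2.15% in ILC2, or 1.00% without hucMSC-Exo 1. *Il4* was mainly a basophil transcript, with 72.4% of 1219 UMIs there and 1.39% in ILC2, or 58.8% and 5.88% without Control 2, the library that held 947 of these UMIs. The IL-25 receptor gene *Il17rb* was rare, and ILC2 held 44.0% of its 84 UMIs, whereas they held 4.03% of the 1714 UMIs of *Il1rl1*. The ligands measured elsewhere were *Tslp*, with 1 of 52 UMIs in ILC2, and *Il33*, with 3 of 160.

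**Figure D3:**
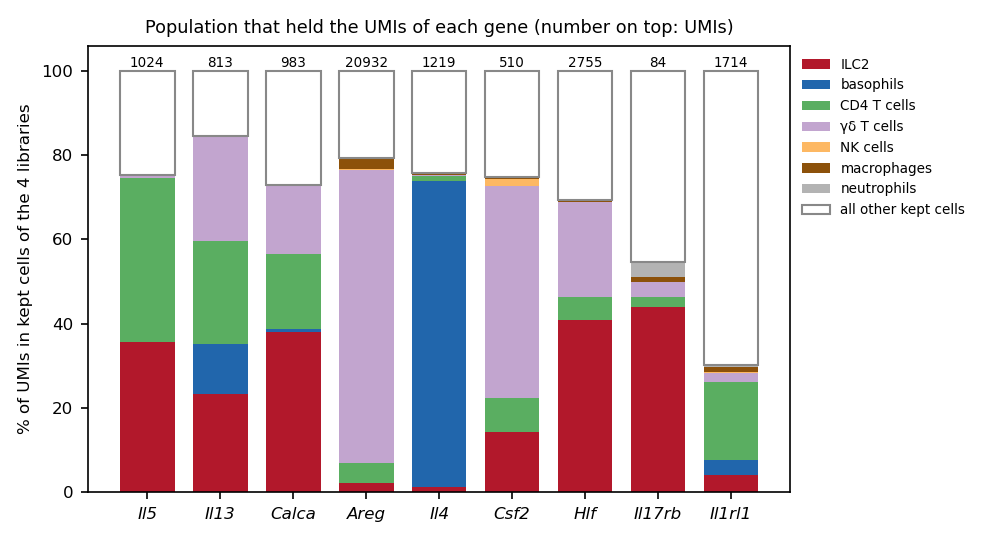
Percentage of the UMIs of each gene in all kept cells of the 4 libraries (y axis) that lay in each gated population, pooled over libraries, with the number of UMIs above the bar. ILC2 (red) held 35.6% of *Il5*, 38.1% of *Calca* and 40.8% of *Hlf*, but 2.15% of *Areg* and 1.39% of *Il4*, and white marks cells in none of the gates.

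To show where ILC2 stood apart, their summed counts per library were compared with those of basophils, NK cells and CD4 T cells from the same libraries. Each population was cut on transcripts of these same cells, so genes linked to a gate were bound to differ, and gate genes of either population were left untested. Libraries with under 10 cells of a population were left out, which removed Control 1 for basophils (72 cells with *Mcpt8* and at least 2 of 6 basophil genes) and hucMSC-Exo 1 for NK cells (46 cells with *Ncr1* and at least 2 of 6 NK genes), and all 4 libraries served for CD4 T cells (185 cells with *Cd4*, *Cd3e* and at least 2 of 6 T cell genes, without *Foxp3* and *Trdc*). The 3 comparisons share the ILC2 samples. A gene without a UMI in the other population could enter a test only through the ILC2. The difference of such a gene is a description, as is a count of higher genes that holds one. Fold changes are given as log2 of ILC2 over the other population ± SE, by edgeR's quasi-likelihood test with the library as a term, and p is adjusted over all genes tested. Against basophils 412 genes were higher and 450 lower of 2241 tested, against NK cells 120 and 98 of 1461, and against CD4 T cells 127 and 121 of 2847. Without the 8 cells rich in other RNA, the totals were 876, 230 and 290 genes. DESeq2 called fewer genes against basophils, 178 higher and 364 lower, and against NK cells, 35 higher and 52 lower. The median over all tested genes was 0.26 against basophils and 0.00 against the other populations, and none of the 100 named differences from basophils changed sign when it was subtracted.

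Of the receptors for alarmins, cytokines and costimulation, *Icos* was higher in ILC2 than in all 3 populations. The list held 27 genes outside the gate. Against basophils 15 were tested, and 6 were higher and 2 lower, beside 18.4% higher and 20.1% lower among all genes (list median 0.89). Of the 6, *Il2rb* had no UMI and *Icos* almost none in basophils, so they could enter the test only through the ILC2. The count of 6 is therefore a description. Against NK cells 4 of 12 were higher and 3 lower, beside 8.21% and 6.71% of all genes (median 0.34), and against CD4 T cells 2 of 20 were higher and 4 lower, beside 4.46% and 4.25% (median -0.32). Of these calls, 3 of 8 against basophils, 4 of 7 against NK cells and 3 of 6 against CD4 T cells were lost under at least 1 alternative setting or with 1 library left out, here called an alternative.

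*Icos* was detected at a like level in the ILC2 of each library, at 1535, 1803, 1933 and 1607 CPM. It was higher than in basophils, at 5.82, 0 and 0 CPM in the 3 libraries used, by 8.08 ± 0.51 log2 units (adjusted p = 4.70e-09). NK cells had 69.8, 145 and 0 CPM, a difference of 4.46 ± 0.45 log2 units (adjusted p = 1.36e-05). CD4 T cells had 777, 1071, 1269 and 963 CPM and differed by 0.80 ± 0.13 log2 units (adjusted p = 0.00283), with ILC2 higher in 4 of 4 libraries, a call that was lost when cells with over 3000 genes were kept (0.49 log2 units, adjusted p = 0.13). Gamma delta T cells, which were not tested, had 126, 504, 526 and 781 CPM. The lowest ILC2 library thus lay above every library of all 4 other populations.

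*Kit* ranged more widely within the ILC2, at 173, 372, 298 and 143 CPM. It was higher than in CD4 T cells, with 0, 37.0, 6.25 and 0 CPM, by 4.19 ± 0.45 log2 units (adjusted p = 0.00021), and higher than in basophils by 2.78 ± 0.48 log2 units (adjusted p = 0.000295). Against NK cells the difference of 1.46 ± 0.42 log2 units (adjusted p = 0.0312) was lost without Control 1 (1.23 log2 units, adjusted p = 0.148), with 3 of the 6 genes required, when cells with over 3000 genes were kept, without the library term and with DESeq2. *Il7r* stood at 540.4, 876, 829.6 and 608 CPM and was higher than in NK cells by 2.09 ± 0.36 log2 units (adjusted p = 0.00135), a call lost after thinning to 1000 UMIs per cell. CD4 T cells carried a like level of *Il7r*, 404, 1132, 857 and 668 CPM, with a difference of -0.03 ± 0.17 log2 units (adjusted p = 0.964). *Il2ra*, the high-affinity chain of the IL-2 receptor, stood at 141, 155, 153 and 133 CPM and exceeded basophils by 3.02 ± 0.73 log2 units (adjusted p = 0.00396) and NK cells by 2.33 ± 0.68 log2 units (adjusted p = 0.031), whereas CD4 T cells ranged from 91.4 to 264 CPM. The call of *Il2ra* against NK cells was lost without Control 1 (1.95 log2 units, adjusted p = 0.144), without hucMSC-Exo 2 (1.90 log2 units, adjusted p = 0.0812), with 3 of the 6 genes required, when cells with over 3000 genes were kept, without the library term and with DESeq2.

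Of the IL-18 receptor chains, *Il18rap* was higher than in CD4 T cells by 0.98 ± 0.22 log2 units (adjusted p = 0.0163), a call lost without Control 2 (0.99 log2 units, adjusted p = 0.0833), without hucMSC-Exo 1 (1.05 log2 units, adjusted p = 0.0521), without hucMSC-Exo 2 (0.87 log2 units, adjusted p = 0.0505), when cells with over 3000 genes were kept, without the library term, with DESeq2 and without the filter on low counts. No difference of *Il18r1* passed the test. *Il18r1* was read at 227, 246, 373 and 257 CPM, and its differences from basophils, NK cells and CD4 T cells were -0.11 ± 0.35, 0.27 ± 0.33 and 0.45 ± 0.28 log2 units (smallest adjusted p = 0.388). *Il1rl1* stood at 64.8, 155, 33.9 and 171 CPM, and in hucMSC-Exo 2 a single cell held 88.9% of its UMIs. It was higher than in NK cells by 2.66 ± 0.73 log2 units (adjusted p = 0.024), with 11.6, 39.7 and 0 CPM there, and lower than in basophils, at -1.65 ± 0.45 log2 units (adjusted p = 0.00902). The call against basophils was lost without Control 2 (-2.01 log2 units, adjusted p = 0.104), without hucMSC-Exo 1 (-0.92 log2 units, adjusted p = 0.103), when cells with over 3000 genes were kept, with DESeq2 and without the filter on low counts, and that against NK cells with DESeq2. *Il17rb* was too low to test, at 32.4, 51.5, 37.7 and 47.5 CPM in ILC2, 0 to 6.25 CPM in CD4 T cells and 0 in NK cells and basophils.

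Several receptors known from NK cells and T cells were lower in ILC2. *Il2rb*, a chain of the IL-2 and IL-15 receptors, stood at 238, 624, 498 and 304 CPM and was lower than in NK cells, at -1.70 ± 0.26 log2 units (adjusted p = 0.000438). *Ctla4* and *Cd28*, receptors that restrain and costimulate T cells, were lower than in CD4 T cells, at -4.55 ± 0.37 log2 units (adjusted p = 6.18e-05) and -2.73 ± 0.29 log2 units (adjusted p = 0.00021). *Ifngr1*, the ligand-binding chain of the interferon-gamma receptor, ranged from 162 to 698 CPM and was lower than in NK cells, at -1.21 ± 0.29 log2 units (adjusted p = 0.0124) and than in CD4 T cells, at -0.93 ± 0.19 log2 units (adjusted p = 0.011), but higher than in basophils by 3.18 ± 0.43 log2 units (adjusted p = 2.51e-05). The call against NK cells was lost without Control 1 (-1.06 log2 units, adjusted p = 0.0573), without hucMSC-Exo 2 (-1.11 log2 units, adjusted p = 0.0617), after thinning to 1000 UMIs per cell, without the library term and with DESeq2, and that against CD4 T cells without the library term.

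**Figure D4:**
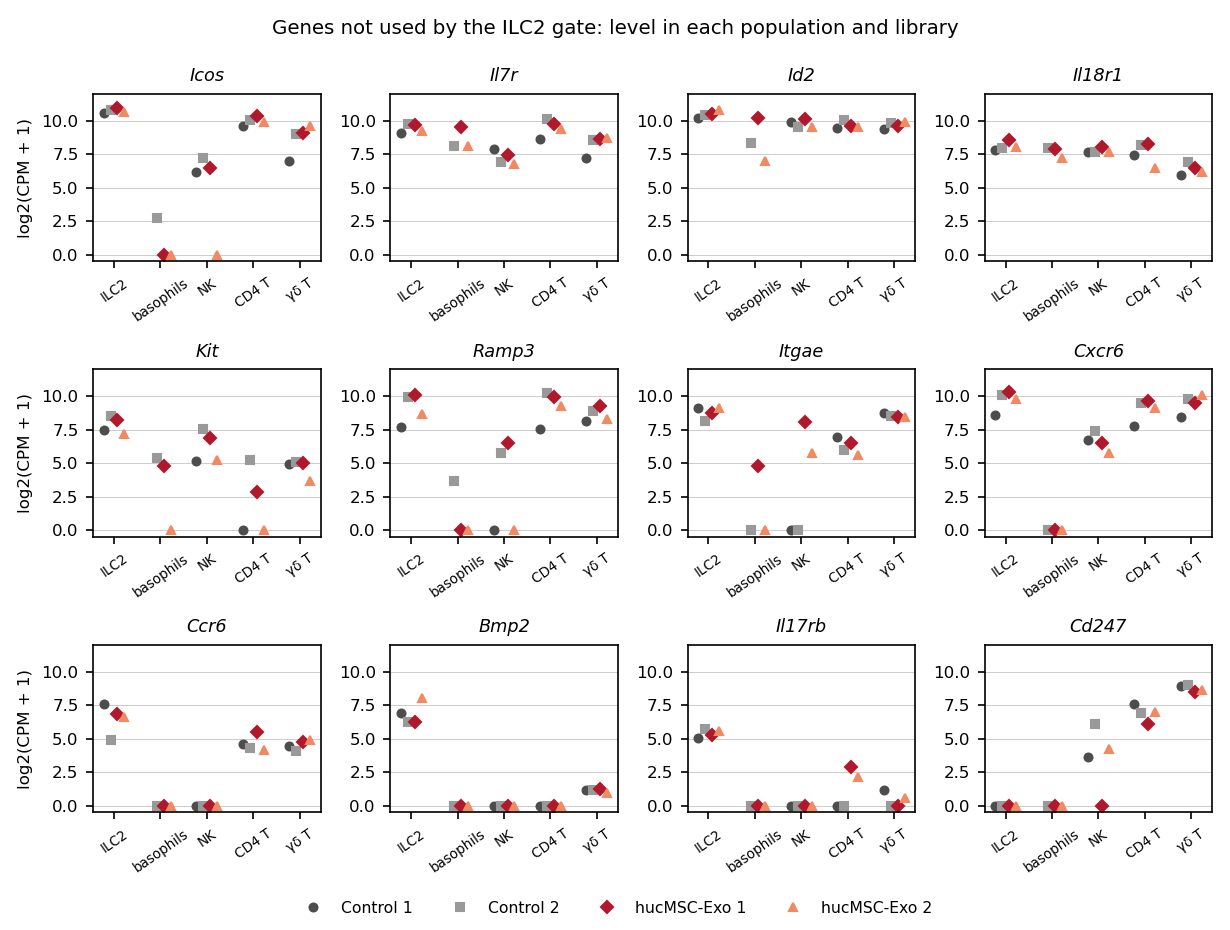
Level, as log2(CPM + 1), of 12 genes that the ILC2 gate did not use (panels) in ILC2, basophils, NK, CD4 T and gamma delta T cells (x axis). Each point is 1 library, including the hucMSC-Exo 1 NK cells that were left out of the tests, and ILC2 were highest in each library for *Icos*, *Bmp2* and *Il17rb*, while *Cd247* was at 0 in each.

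Of 18 listed receptors for neuropeptides, lipid mediators and extracellular protons, 5 of the 6 tested against basophils were higher in ILC2 (18.4% of all genes), 2 of 5 against NK cells (8.21%) and 3 of 7 against CD4 T cells (4.46%), and none was called lower (medians 5.37, or 3.05 with genes at 0 in basophils set to their bound, 0.84 and 0.60 log2 units). The 5 genes called against basophils had 0 to 5 UMIs each in all 72 basophils, so they could enter the test only through the ILC2 and their count supports nothing. Of the 3 calls against CD4 T cells, 2 (*Ptger4* and *Cysltr1*) were lost with DESeq2 and under other alternatives. *Gpr65*, a receptor that senses acid, was higher than in all 3 populations. It stood at 249, 275, 266 and 228 CPM in ILC2, 17.4, 52.3 and 0 in basophils, 58.1, 26.4 and 36.0 in NK cells and 76.2, 48.6, 119 and 66.4 in CD4 T cells. Its differences were 3.09 ± 0.55 log2 units (adjusted p = 0.000338), 2.57 ± 0.45 log2 units (adjusted p = 0.00154) and 1.82 ± 0.25 log2 units (adjusted p = 0.00113), in the same order of populations. The 4 ILC2 libraries lay within a narrow range for this gene, and no library of the tested populations reached them.

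*Ramp3*, an accessory chain of receptors for the calcitonin peptide family, to which CGRP belongs, varied among the ILC2 at 205, 979, 1075 and 409 CPM. It was higher than in basophils by 6.19 ± 0.56 log2 units (adjusted p = 2.63e-07) and than in NK cells by 4.81 ± 0.57 log2 units (adjusted p = 6.19e-05). CD4 T cells had a like level in the same libraries, 183, 1215, 1000.4 and 601 CPM, and differed by -0.14 ± 0.18 log2 units (adjusted p = 0.748). *Cysltr1*, a receptor for cysteinyl leukotrienes, stood at 108, 91.6, 106 and 57.0 CPM and had no UMI in the basophils, so that ILC2 were at least 8.04-fold higher against a floor of 3 UMIs over the libraries used. Against CD4 T cells *Cysltr1* differed by 1.39 ± 0.39 log2 units (adjusted p = 0.0483), a call lost without Control 1 (1.13 log2 units, adjusted p = 0.0788), without Control 2 (1.55 log2 units, adjusted p = 0.159), without hucMSC-Exo 1 (1.34 log2 units, adjusted p = 0.205), when cells with over 3000 genes were kept and with DESeq2.

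Among 36 transcription regulators of innate lymphoid cells, 11 of the 20 tested against NK cells were higher in ILC2 and none lower, beside 8.21% and 6.71% of all genes (median 1.16, against 0.00 over all genes). DESeq2 lost 5 of the 11, namely *Id2*, *Bcl11b*, *Crem*, *Nr4a1* and *Rbpj*, and leaving out hucMSC-Exo 2 lost 4. Against basophils 11 of 24 were higher and 4 lower, beside 18.4% and 20.1% (median 0.58), and 8 of these 15 calls were lost under at least 1 alternative. *Maf* and *Tox*, among the 11, had no UMI in basophils, so that count is a description. Against CD4 T cells 8 of 28 were higher and 3 lower, beside 4.46% and 4.25% (median -0.06), and 5 of the 8 and all 3 lower calls were lost under at least 1. *Ikzf3*, *Klf4* and *Lmo4* were higher than in all 3 populations.

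*Ikzf3*, which encodes the lymphoid zinc finger protein Aiolos, stood at 281, 361, 379 and 447 CPM, against 53.3, 64.8, 138 and 166 CPM in CD4 T cells. Its differences were 3.98 ± 0.53 log2 units (adjusted p = 2.23e-05) from basophils, 1.90 ± 0.36 log2 units (adjusted p = 0.00257) from NK cells and 1.90 ± 0.24 log2 units (adjusted p = 0.000701) from CD4 T cells. *Lmo4*, a LIM domain cofactor, was read at 281, 618, 584 and 304 CPM, and at 0, 118, 25.01 and 59.8 CPM in CD4 T cells and 46.1, 55.4, 46.5 and 67.8 CPM in gamma delta T cells. It differed from NK cells by 2.76 ± 0.42 log2 units (adjusted p = 0.000394) and from CD4 T cells by 3.09 ± 0.42 log2 units (adjusted p = 0.00112), and from basophils by 1.74 ± 0.39 log2 units (adjusted p = 0.00266), the last being lost without Control 2 (1.40 log2 units, adjusted p = 0.113), when cells with over 3000 genes were kept and after thinning to 1000 UMIs per cell. *Klf4*, a zinc finger factor, stood at 162, 166, 247 and 352 CPM and differed by 3.07 ± 0.56 log2 units (adjusted p = 0.000477) from basophils, 2.88 ± 0.60 log2 units (adjusted p = 0.0048) from NK cells and 2.04 ± 0.31 log2 units (adjusted p = 0.00199) from CD4 T cells. Gamma delta T cells carried 232 to 422 CPM of *Klf4*, so that gene was not highest in ILC2. The call of *Klf4* against basophils was lost when cells with over 3000 genes were kept.

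*Id2* was read at 1189, 1351, 1439 and 1787 CPM and was higher than in CD4 T cells by 0.85 ± 0.17 log2 units (adjusted p = 0.0086), a call lost when cells with over 3000 genes were kept. *Bcl11b*, which both T cells and ILC2 require, stood at 216, 91.6, 138 and 114 CPM, higher than in NK cells by 3.79 ± 0.80 log2 units (adjusted p = 0.00506), a call lost with DESeq2, and overlapping with CD4 T cells at 152, 118, 200.1 and 113 CPM. *Maf* and *Tox* had no UMI in basophils, and ILC2 were at least 22.7-fold and 11.2-fold higher. *Batf*, a regulator of activated T cells, was lower than in CD4 T cells, at -1.28 ± 0.27 log2 units (adjusted p = 0.0128), a call lost without hucMSC-Exo 1 (-1.26 log2 units, adjusted p = 0.0615), without hucMSC-Exo 2 (-1.11 log2 units, adjusted p = 0.0665) and with DESeq2. *Zeb2*, a zinc finger repressor, was lower than in basophils, at -3.32 ± 0.31 log2 units (adjusted p = 3.97e-07).

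Homing and residency genes of the list, 23 in all, were called in both directions, with 5 higher and 7 lower of 15 against basophils (18.4% and 20.1% of all genes), 3 and 3 of 12 against NK cells (8.21% and 6.71%), and 5 and 3 of 16 against CD4 T cells (4.46% and 4.25%). Their medians were -0.47, 0.26 and 0.58, and 4 of 12, 2 of 6 and 5 of 8 calls were lost under at least 1 alternative. *Itgae*, the CD103 integrin chain that binds epithelial E-cadherin, stood at 540.4, 286, 424 and 561 CPM in ILC2. CD4 T cells had 122, 62.5, 87.5 and 46.5 CPM and differed by 2.57 ± 0.27 log2 units (adjusted p = 0.00021), and NK cells by 4.91 ± 0.63 log2 units (adjusted p = 0.000119), the latter being lost after thinning to 1000 UMIs per cell. Gamma delta T cells, with 435, 356, 340.4 and 341 CPM, overlapped with ILC2. *Cxcr6*, a chemokine receptor of tissue lymphocytes, was read at 389, 1065, 1265 and 903 CPM and had no UMI in the basophils, so that ILC2 were at least 98.1-fold higher. It exceeded NK cells by 2.70 ± 0.38 log2 units (adjusted p = 0.000254). Against CD4 T cells *Cxcr6* differed by 0.72 ± 0.15 log2 units (adjusted p = 0.0111), a call lost without Control 2 (0.78 log2 units, adjusted p = 0.0624), without hucMSC-Exo 1 (0.68 log2 units, adjusted p = 0.0557), when cells with over 3000 genes were kept, without the library term and without the filter on low counts.

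*Cd44*, the hyaluronan receptor, stood at 692, 704, 750.4 and 694 CPM and was higher than in all 3 populations, by 1.39 ± 0.33 log2 units (adjusted p = 0.00395), 2.28 ± 0.31 log2 units (adjusted p = 0.000192) and 0.86 ± 0.16 log2 units (adjusted p = 0.00752). The difference from CD4 T cells was lost without Control 2 (0.88 log2 units, adjusted p = 0.0549). Other adhesion and migration genes were lower. *Ccr2*, the receptor for monocyte chemoattractants, stood at 32.4, 200.3, 49.0 and 57.0 CPM in ILC2 and at 314, 753 and 612 CPM in NK cells, a difference of -2.63 ± 0.38 log2 units (adjusted p = 0.0003), and CD4 T cells differed by -2.13 ± 0.30 log2 units (adjusted p = 0.00113). The integrin chain gene *Itgb1* was lower in ILC2, at 21.6, 97.3, 64.1 and 38.0 CPM, than in basophils by -3.16 ± 0.39 log2 units (adjusted p = 1.07e-05), NK cells by -2.92 ± 0.44 log2 units (adjusted p = 0.000369) and CD4 T cells by -1.57 ± 0.34 log2 units (adjusted p = 0.0141), the last being lost without Control 2 (-1.70 log2 units, adjusted p = 0.0695).

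Among secreted products outside the gate, *Il4* and *Il6* marked the basophils and *Xcl1* the NK cells. Of 30 listed genes, 4 were higher and 9 lower of 15 tested against basophils (18.4% and 20.1% of all genes), 1 and 4 of 10 against NK cells (8.21% and 6.71%), and 2 and 3 of 11 against CD4 T cells (4.46% and 4.25%), so the higher counts against basophils and NK cells lay near those of all genes. Medians were -2.18, -1.26 and -0.43, and both higher calls against CD4 T cells were lost under at least 1 alternative. *Il4* stood at 54.0, 5.72, 7.54 and 66.6 CPM in ILC2 and 4199.6, 2302 and 1785 CPM in basophils, a difference of -7.68 ± 0.51 log2 units (adjusted p = 6.89e-09). *Il6* was at 0 to 9.51 CPM and differed from basophils by -10.27 ± 0.35 log2 units (adjusted p = 3.02e-12). *Csf2*, the gene of the growth factor GM-CSF, was read at 129.7, 160.3, 39.6 and 114 CPM in ILC2. It had no UMI in basophils, so that ILC2 were at least 6.29-fold higher, a call lost when cells with over 3000 genes were kept. CD4 T cells had 7.62, 83.3, 12.51 and 6.64 CPM, a difference of 1.91 ± 0.48 log2 units (adjusted p = 0.0314) that was lost without Control 1 (1.61 log2 units, adjusted p = 0.0704), without hucMSC-Exo 2 (1.48 log2 units, adjusted p = 0.0833) and without the library term. A UMI of *Csf2* was found in 22 of the 175 ILC2, and in 1 of 918 macrophages.

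*Furin*, a protease that cleaves precursor proteins, was read at 367, 647, 634 and 428 CPM and exceeded NK cells, at 23.3, 106 and 17.99 CPM, by 3.27 ± 0.45 log2 units (adjusted p = 0.000174). *Xcl1*, a chemokine of NK cells, was lower than in NK cells, at -6.69 ± 0.55 log2 units (adjusted p = 2.34e-06). Its 209 UMIs in the ILC2 lay in 9 cells, and 4 cells of hucMSC-Exo 1 with 10 or more UMIs were among the 8 named above. The TNF family ligands *Tnfsf11* and *Tnfsf8* were lower than in CD4 T cells,, at -4.50 ± 0.43 log2 units (adjusted p = 0.000136) and -2.72 ± 0.36 log2 units (adjusted p = 0.000758). *Il17a*, at 0 to 32.4 CPM, was lower than in CD4 T cells, at -2.71 ± 0.46 log2 units (adjusted p = 0.00391).

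T cell receptor genes were linked to the gates, which barred *Cd3e* in ILC2 and required it in CD4 T cells. Differences of such genes were therefore bound to arise, so they are a description and their count supports nothing. Apart from the 6 gate genes on that list, 4 of 6 tested genes were lower and 2 higher, beside 4.25% and 4.46% of all genes. *Cd247* could enter the test only through the CD4 T cells. *Cd247* was at 0 against 190.4, 118, 68.8 and 126 CPM, so that ILC2 were at least 36.7-fold lower. *Cd5*, an inhibitory receptor of T cells, stood at 0, 0, 5.66 and 28.5 CPM against 183, 264, 369 and 395 CPM and differed by -5.43 ± 0.45 log2 units (adjusted p = 6.18e-05), and *Cd6* and *Lat*, also parts of T cell receptor signalling, differed by -4.70 ± 0.49 log2 units (adjusted p = 0.00021) and -2.01 ± 0.25 log2 units (adjusted p = 0.000627). The 2 higher genes were gamma delta receptor segments. *Trdv4* stood at 43.2, 68.7, 71.6 and 105 CPM in ILC2, 7.62, 0, 0 and 0 CPM in CD4 T cells and 881, 849.9, 915 and 907 CPM in gamma delta T cells. *Tcrg-C4* stood at 97.3, 63.0, 37.7 and 38.0 CPM in ILC2 and 184, 107, 107 and 81.6 CPM in gamma delta T cells, and the differences from CD4 T cells were 5.63 ± 0.89 log2 units (adjusted p = 0.00259) and 5.23 ± 0.96 log2 units (adjusted p = 0.00622).

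Genes with the largest called differences outside the lists included several without a UMI in the comparison cells. *Bmp2*, which encodes a secreted bone morphogenetic protein, was read at 119, 74.4, 75.4 and 257 CPM in ILC2 and in 28.6% of the cells. It had no UMI in basophils, NK cells or CD4 T cells and 0.955 to 1.37 CPM in gamma delta T cells, and ILC2 were at least 9.92-fold above NK cells and 34.4-fold above CD4 T cells. *Igsf5*, an immunoglobulin superfamily gene, stood at 64.8, 97.3, 73.5 and 57.0 CPM, at least 25.7-fold above CD4 T cells, and gamma delta T cells ranged from 0 to 1.91 CPM. *Jcad*, known from cell junctions of endothelium, was read at 21.6, 206, 109 and 133 CPM and differed from CD4 T cells by 3.82 ± 0.44 log2 units (adjusted p = 0.000393). Both *Bmp2* and *Igsf5* were at or near 0 in every population they were set against here, and they were detected in all 4 ILC2 libraries. They could enter these tests only through the ILC2, so their calls are a description.

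*Pxdc1* stood at 357, 280.4, 337 and 209 CPM and exceeded NK cells by 5.62 ± 0.71 log2 units (adjusted p = 9.84e-05). *Irs2*, an adaptor of insulin and cytokine receptors, was read at 767, 693, 686 and 723 CPM, a narrow range, against 23.3, 79.3 and 36.0 CPM in NK cells, a difference of 3.93 ± 0.42 log2 units (adjusted p = 2.50e-05) that was lost after thinning to 1000 UMIs per cell (3.24 log2 units, adjusted p = 0.0566). *Sema6d* and *Basp1* exceeded CD4 T cells by 3.22 ± 0.60 log2 units (adjusted p = 0.00677) and 3.09 ± 0.50 log2 units (adjusted p = 0.00295), the former being lost without Control 2 (2.56 log2 units, adjusted p = 0.0549) and the latter when cells with over 3000 genes were kept, while *Basp1* in basophils ranged from 500.2 to 916 CPM. Among genes without a UMI in basophils, *Il2rb*, *Jaml* and *Ptpn22* were at least 41.7, 21.02 and 19.8 times higher in ILC2. *Bcl2a1b* and *Bcl2a1d* were also at 0 in basophils but are near-identical copies, so their split is uncertain. *Ccl3* and *Ccl4*, likewise similar genes, ranked among those furthest below basophils, with *Ccl3* at 0 to 1.89 CPM in ILC2 against 22918 to 45218 CPM.

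Of 16 immediate early and heat shock genes, which respond to early activation and to stress, 11 were called lower in ILC2 than in basophils and none higher, beside 20.1% and 18.4% of all genes. Against CD4 T cells 6 of 15 were higher and none lower, beside 4.46% and 4.25%. Against NK cells 5 of 14 were higher and none lower, beside 8.21% and 6.71%, but DESeq2 lost all 5 of these calls and thinning to 1000 UMIs lost 4. Medians were -1.58 against basophils, 0.75 against NK cells and 1.01 against CD4 T cells, and 5 of the 11 calls against basophils and 2 of the 6 against CD4 T cells were lost under at least 1 alternative. *Jund*, a subunit of the AP-1 factor, stood at 1146, 950.1, 881 and 1493 CPM and differed by -1.28 ± 0.22 log2 units (adjusted p = 0.000245), 1.11 ± 0.28 log2 units (adjusted p = 0.0141) and 0.98 ± 0.15 log2 units (adjusted p = 0.00209) from basophils, NK cells and CD4 T cells. The call of *Jund* against basophils was lost when cells with over 3000 genes were kept and without the filter on low counts, and that against NK cells without Control 1 (1.08 log2 units, adjusted p = 0.057), without hucMSC-Exo 2 (0.87 log2 units, adjusted p = 0.115), when cells with over 3000 genes were kept, after thinning to 1000 UMIs per cell and with DESeq2. *Zfp36*, which promotes decay of cytokine mRNA, stood at 389, 229, 206 and 856 CPM and differed by -2.61 ± 0.34 log2 units (adjusted p = 1.78e-05) from basophils and 1.84 ± 0.27 log2 units (adjusted p = 0.00178) from CD4 T cells. The summed level of the list was 8495 CPM in Control 1, 6828 in Control 2, 6092 in hucMSC-Exo 1 and 17675 in hucMSC-Exo 2. The ILC2 of hucMSC-Exo 2 thus lay above the other libraries. The part of that library in the results was not tested. In CD4 T cells the list summed to 5856, 3555, 6284 and 5233 CPM in the same order, above the ILC2 only in hucMSC-Exo 1. NF-kB feedback genes were lower than in basophils in 4 of 9 cases (20.1% of all genes), and 0 of 6 were called against NK cells. Against CD4 T cells 1 of 10, *Rel*, was higher (4.46% of all genes), a call lost without Control 2 (0.78 log2 units, adjusted p = 0.112), without hucMSC-Exo 1 (0.83 log2 units, adjusted p = 0.0706), when cells with over 3000 genes were kept and without the filter on low counts. Medians of these genes were -1.21, 0.39 and 0.12.

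Proliferation markers were present in a minority of ILC2. Both *Mki67* and *Top2a* were found in 19 cells (3, 3, 11 and 2 per library) and either in 48. *Stmn1*, a microtubule regulator of dividing cells, was read at 594, 441, 351 and 437 CPM. Cell cycle genes were higher than in basophils in 4 of 7 cases (18.4% of all genes), NK cells in 3 of 6 (8.21%) and CD4 T cells in 2 of 8 (4.46%), and none was called lower (medians 2.05, 1.21 and 0.60). None of these calls held under every alternative. The 3 against NK cells, *Mki67*, *Stmn1* and *Tubb5*, were all lost with DESeq2, without the library term, without Control 1, without Control 2 and when cells with over 3000 genes were kept. *Stmn1* exceeded CD4 T cells by 1.02 ± 0.21 log2 units (adjusted p = 0.011), a call lost without Control 2 (0.79 log2 units, adjusted p = 0.0936), when cells with over 3000 genes were kept and without the library term. When cells with over 3000 genes were kept, the differences from basophils of *Stmn1*, *Top2a* and *Tubb5* turned negative, and their calls were also lost without Control 2, namely *Stmn1* (0.85 log2 units, adjusted p = 0.282), *Top2a* (2.32 log2 units, adjusted p = 0.0854) and *Tubb5* (1.45 log2 units, adjusted p = 0.0726). Among 8 survival genes, 2 were higher and 3 lower of 6 tested against basophils (18.4% and 20.1% of all genes), 2 of 6 were lower than in NK cells (6.71%), and 0 of 7 were called against CD4 T cells. The 2 higher genes were the copies *Bcl2a1b* and *Bcl2a1d*, whose split is uncertain, and DESeq2 lost both calls against NK cells, *Bcl2* and *Bcl2l11*.

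**Figure D5:**
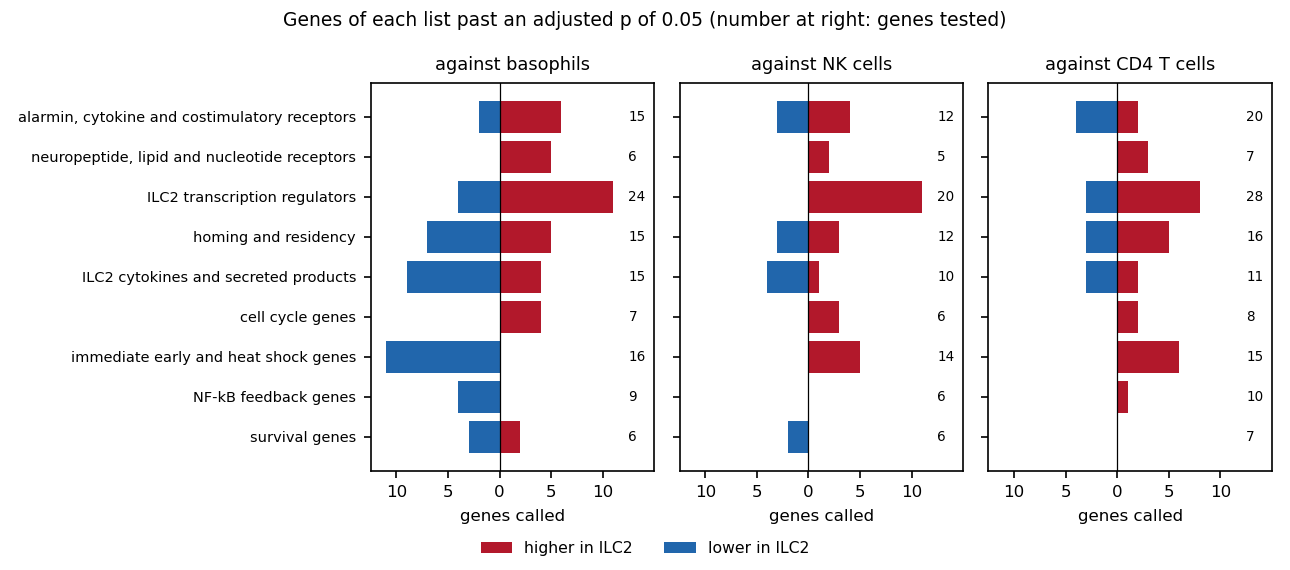
Number of genes of 9 lists that were higher (red, right) or lower (blue, left) in ILC2 at an adjusted p under 0.05, against basophils, NK cells and CD4 T cells. Numbers at the right give the genes tested, and transcription regulators had 11 higher and none lower of 20 against NK cells, while immediate early and heat shock genes had 11 lower of 16 against basophils.

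Within the ILC2, hucMSC-Exo and Control libraries were compared over 1960 genes, the question the treatment poses for these cells. No gene passed an adjusted p of 0.05 by edgeR, 0% of the genes tested being higher and 0% lower, and 45 had an unadjusted p under 0.05. DESeq2 also called 0 genes, with 16 at an unadjusted p under 0.05. The labels do not tie libraries to animals, so p-values measure the spread between libraries, and 15 to 109 cells lay behind each sum. Leaving out Control 1 gave 19 called genes, Control 2 gave 31, hucMSC-Exo 1 gave 0 and hucMSC-Exo 2 gave 8. Each of these fits left 1 library in a group, which was then assumed to vary like the 2 libraries of the other group.

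*Icos* differed by 0.08 ± 0.21 log2 units, hucMSC-Exo over Control, and *Il7r* by 0.02 ± 0.32 log2 units. *Csf2* was read at 145 ± 21.6 CPM in Control and 76.9 ± 52.7 CPM in hucMSC-Exo (SD, n = 2), a difference of -1.28 ± 0.54 log2 units (adjusted p = 1.00). *Klf4* stood at 164 ± 2.73 and 299 ± 74.1 CPM and differed by 0.83 ± 0.36 log2 units (adjusted p = 1.00). Neither *Csf2* nor *Klf4* passed the threshold. *Hspa1a*, a heat shock gene, was at 411, 303, 183 and 1797 CPM, so the treated mean rested on hucMSC-Exo 2, and the difference of 1.43 ± 0.85 log2 units (adjusted p = 1.00) did not pass. Medians of the lists ranged from -0.57 for keratinocyte and fibroblast genes to 0.66 for immediate early and heat shock genes, beside -0.01 over all genes, and none of the list members was called.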

How the data were processed

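Single cells from periwound skin of 4 libraries (2 Control, 2 hucMSC-Exo) were profiled with the 10x Genomics 3′ chemistry. The submitters' processing notes name Cell Ranger 6.1.2 and mm10, and the deposited matrices hold UMI counts per gene and barcode, not normalised. From these, 6443 of 7178 barcodes were kept, with 200 to 3000 genes and at most 10% mitochondrial UMIs, and populations were gated on UMIs. Members, gates and the 18 gene lists were chosen with earlier results of these data known. Named genes were list members and, per comparison, up to 8 in each direction with the largest called fold changes, at 50 CPM or more in the higher group and 1 direction in every library.

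UMI counts were summed per library and population (10 or more cells) and tested with edgeR 4.0.16 (R 4.3.3, TMM, filterByExpr, quasi-likelihood, Benjamini-Hochberg, adjusted p under 0.05). Populations were compared with the library as a term. The study's methods tested over cells, whereas sums per library were used here because cells of 1 library are not replicates. Gate genes stayed in the totals but were not tested. Shares were tested by exact permutation (scipy 1.17.1) with Clopper-Pearson intervals. A count of 0 was set to a floor of 3 UMIs for bounds of folds. Intervals and floors cover counting error only. Alternatives were other gates, thinning to 1000 UMIs, the gene limit, Scrublet calls (scanpy 1.11.5, 0.543% of cells marked), DESeq2 1.42.0, other size factors, no filter, other blocks and each library left out. The gate without T cell receptor transcripts served for the shares only. Scripts were tested on simulated data. Only the 19001 genes listed in all 4 matrices (21739 in any) could be compared, and *Il9*, *Il3* and *Nmur1* were not among the genes used here. Promoters came from RefSeq (GRCm38.p6).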

Additional observations from a re-analysis of the deposited data

How the results depend on the processing

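The share difference of 2.86 percentage points turned to -0.46 without hucMSC-Exo 1 and ranged from -0.46 to 6.19 with 1 library left out. Between treatment groups, the 0 called genes became 3 (*Fth1*, *Gla* and *Malat1*, named after their values were seen) with a replicate block, 13 without the filter on low counts, and 0 to 31 with 1 library left out, where the lone library of a group was assumed to vary like the other group. Same-numbered libraries deviated with r = -0.22 over 1967 genes, so the numbers were not shown to pair them, and a crossed block, added after seeing the data, called 0. Against basophils the 862 calls became 368 (122 higher) when cells with over 3000 genes were kept, 243 after thinning, 542 (178 higher) with DESeq2, 920 (554 higher) without the filter, and 298 to 767 with 1 library left out, the lowest without Control 2. Against NK cells the 218 calls became 17 after thinning, which left 246 genes to test, 119 with no replicate block (the library term left out), 87 with DESeq2, 302 (194 higher) without the filter, and 133 to 182. Against CD4 T cells the 248 calls became 84 after thinning, 160 with no replicate block, and 106 to 222, the lowest without Control 2, with 165 without hucMSC-Exo 1. With cells over 3000 genes kept, log2 differences from basophils reversed for *Apoe* (0.39), *S100a8* (0.27), *S100a9* (1.12), *Krt14* (1.19), *Top2a* (-0.47), *Stmn1* (-0.23) and *Tubb5* (-0.62), and from NK cells for *Tubb5* (-0.070). The cause of these changes was not tested. Of the named calls, 63 of 100, 30 of 58 and 35 of 68 held under every alternative that tested them, against basophils, NK cells and CD4 T cells. The gate that barred *Cd3g* and T cell receptor UMIs left too few cells per library for these fits. No call was therefore tested in cells without such transcripts. The NK cell and basophil sums rested on 46 and 72 cells.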
